A study of Mus musculus with 2 samples.

Results

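The 8 genes followed here belong to the cholesterol pathway and were measured across the myeloid cells of the mouse liver: Hmgcs1, Idi1, Fdft1, Sqle, Cyp51, Msmo1, Insig1 and Srebf2. They were chosen by name as known genes of sterol synthesis and of its control, and they are 8 of the 25909 genes in the count matrix. The cells were CD45.2+ CD11b+ liver cells without CD90.2, B220, NK1.1 or SiglecF, sorted from 4 mice. An Egr2fl/fl mouse and a Lyz2Cre/+.Egr2fl/fl mouse were kept on a normal diet (ND), and 1 mouse of each genotype was fed CDA-HFD, a high-fat diet of defined amino acids that lacks choline and brings on steatohepatitis and later fibrosis, for 7 weeks. The study's methods give males aged 6 to 12 weeks for this feeding. All 4 mice carried the floxed Egr2 alleles, and Lyz2-driven Cre removes the gene in cells with an active Lyz2 locus, mainly monocytes, macrophages and neutrophils. The cells of each mouse were tagged with their own hashtag and pooled into 1 BD Rhapsody run with TAS-Seq amplification. The pool took 3000 cells from each ND mouse and 9000 from each CDA-HFD mouse. With 1 mouse for each combination of genotype and diet, a group cannot be compared with another by a test. No test over the 4 mice was run, and no p-value is given. All intervals are 95% intervals, exact Poisson for levels, exact binomial for ratios and Clopper-Pearson for shares, and cover counting error only. Counts clustered in single cells, with a variance over mean across the cells of a class from 1.28 to 9.06 for Hmgcs1, so that these intervals are narrower than the true error.

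Animal cells make cholesterol from acetyl-CoA through the mevalonate pathway. When sterols in the endoplasmic reticulum are low, Scap carries Srebp2 to the Golgi, where it is cut, and the released factor enters the nucleus and turns on the enzymes of the pathway. When sterols are plentiful, Insig proteins hold Scap and Srebp2 back. Oxysterols also activate the Lxr receptors, which turn on genes of cholesterol export, so that the sterol supply of a macrophage is read by both arms.

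The genes lie on 5 chromosomes. In the GENCODE annotation of GRCm38, Hmgcs1 spans chr13:119690379-119708260 on the plus strand and Idi1 spans chr13:8885501-8892451 on the plus strand. Fdft1 spans chr14:63145150-63179578 on the minus strand, and Sqle spans chr15:59315077-59331192 on the plus strand. Cyp51 spans chr5:4081145-4104746 and Msmo1 spans chr8:64718139-64733792, both on the minus strand. Insig1 spans chr5:28071363-28078662 and Srebf2 spans chr15:82147181-82205379, both on the plus strand. The sequence just upstream of 3 of them, from RefSeq's promoter table on GRCm38.p6, is printed for 2 genes that moved in opposite directions with diet in monocytes (Hmgcs1, chr13:119690101-119690350, and Insig1, chr5:28071162-28071362) and for the gene of the transcription factor itself (Srebf2, chr15:82147019-82147180). Capitals mark the matches to 4 short motifs, read on both strands: TCACNCCAC (a core of the sterol regulatory element), CACGTG (an E-box), CCAAT and GGGCGG (a GC box).
Hmgcs1: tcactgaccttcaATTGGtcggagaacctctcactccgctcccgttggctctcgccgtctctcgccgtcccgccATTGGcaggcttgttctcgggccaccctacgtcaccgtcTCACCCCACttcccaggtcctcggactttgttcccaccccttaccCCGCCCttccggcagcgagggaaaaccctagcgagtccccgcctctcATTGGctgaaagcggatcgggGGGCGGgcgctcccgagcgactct
Insig1: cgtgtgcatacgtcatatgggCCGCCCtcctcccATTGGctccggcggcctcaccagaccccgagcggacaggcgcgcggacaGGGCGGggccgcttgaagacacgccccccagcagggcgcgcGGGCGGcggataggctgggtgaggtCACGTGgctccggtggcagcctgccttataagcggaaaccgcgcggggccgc
Srebf2: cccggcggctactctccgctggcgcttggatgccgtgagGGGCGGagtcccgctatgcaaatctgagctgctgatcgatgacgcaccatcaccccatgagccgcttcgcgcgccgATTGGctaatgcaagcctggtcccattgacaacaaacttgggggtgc
Of the 8 genes, 6 had an entry in the table. In the 250 bases before the RefSeq start, the sterol element core matched in 1 of these 6, Hmgcs1, 137 bases upstream of the RefSeq start and 165 of the GENCODE start, against 1.053% of all 32851 promoters in the table. The E-box matched in Insig1, 101 bases upstream of the RefSeq start, which lies inside the GENCODE gene, and 52 upstream of the GENCODE start, against 6.021% of all promoters. CCAAT matched in 6 of 6 against 33.85%, and the GC box in 6 of 6 against 32.74%. The matches did not overlap each other in these genes. A match is a description of the letters and not a measured binding site.

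Cells were placed in classes by counting markers. Of 15394 barcodes given to a mouse, 15384 had at most 25% mitochondrial counts, and 9944 of these fell in exactly 1 of the 4 classes described here. Kupffer cells were 726 and 787 in the ND Egr2fl/fl and ND Lyz2Cre/+.Egr2fl/fl mice but 12 and 37 in the CDA-HFD mice of the same genotypes, so that their CDA-HFD levels rest on few cells. Macrophages other than Kupffer cells went the other way, with 110 and 85 cells on ND and 1237 and 1347 on CDA-HFD. Monocytes were 285, 171, 1633 and 1947 cells in the order ND Egr2fl/fl, ND Lyz2Cre/+.Egr2fl/fl, CDA-HFD Egr2fl/fl and CDA-HFD Lyz2Cre/+.Egr2fl/fl, and dendritic cells were 165, 98, 673 and 631. This order of mice is kept for every run of 4 values. The median cell held 13168 to 16459 counts, by mouse. The summed Kupffer markers stood at 23416.5 and 25653.5 CPM, the counts of a gene for each 1000000 counts of the pool, in the ND Kupffer cells and at 13.9 to 29.3 in dendritic cells. Egr2 was lower with the Cre allele in the macrophages, at 65.5, 3.28, 56.3 and 10.6 CPM, and in the monocytes, at 8.74, 4.38, 37.0 and 11.3 CPM. In dendritic cells it stood at 36.3, 36.0, 48.2 and 37.5 CPM, so that the 2 genotypes hardly differed there on ND.

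Among Kupffer cells, monocytes and dendritic cells of the ND mice, each of the 6 enzymes was lowest in Kupffer cells and highest in dendritic cells in both mice. Macrophages fell within that range except for Hmgcs1 and Sqle in the ND Lyz2Cre/+.Egr2fl/fl mouse. Hmgcs1, which makes HMG-CoA, stood at 16.3 CPM (14.5 to 18.3) and 17.8 CPM (15.8 to 19.8) in the Kupffer cells of the 2 ND mice. In monocytes it stood at 44.3, 42.7, 29.5 and 20.8 CPM. In dendritic cells it stood at 68.8, 45.8, 60.6 and 42.1 CPM, above the Kupffer cells of the ND mice in every mouse. Macrophages gave 29.9, 4.93, 40.2 and 32.1 CPM, and the second of these values, below the Kupffer cells of its mouse, rests on 6 counts in 85 cells.

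Idi1, the isomerase that supplies dimethylallyl diphosphate, ran from 11.9 and 7.41 CPM in ND Kupffer cells to 72.0, 81.4, 67.9 and 58.7 CPM in dendritic cells. Its levels in macrophages were 23.1, 18.9, 27.3 and 25.01 CPM, and in monocytes 40.6, 22.4, 29.7 and 16.2 CPM. The dendritic cells therefore stood above every other class in all 4 mice, while macrophages and monocytes changed places between mice. Fdft1, squalene synthase, was also lowest in ND Kupffer cells, at 5.36 and 2.26 CPM. It reached 8.73, 10.7, 16.4 and 13.2 CPM in macrophages, 14.7, 15.3, 18.3 and 10.4 CPM in monocytes, and 25.8, 25.2, 23.6 and 19.6 CPM in dendritic cells.

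Sqle, squalene epoxidase, was close to absent from the Kupffer cells, with 22 counts in 726 cells and 15 counts in 787 cells, or 1.23 CPM (0.769 to 1.86) and 0.848 CPM (0.475 to 1.40). Neutrophils, read as a class with little of these transcripts, held 0, 0, 1.68 and 0.393 CPM of Sqle, so that the Kupffer cell level of this gene cannot be set apart from free RNA. The dendritic cells held 25.3, 18.0, 16.5 and 12.8 CPM, the monocytes 10.3, 8.76, 12.1 and 5.47 CPM, and the macrophages 4.36, 21.3, 11.6 and 7.54 CPM. The 2 ND macrophage values rest on 7 and 26 counts, and the second stood above the dendritic cells of its mouse.

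The last 2 enzymes act on lanosterol and its products. Cyp51, lanosterol 14-demethylase, stood at 11.0 and 6.45 CPM in ND Kupffer cells, at 30.5, 14.8, 30.2 and 23.9 CPM in macrophages, at 42.4, 23.5, 31.0 and 16.9 CPM in monocytes and at 52.2, 70.5, 55.5 and 34.8 CPM in dendritic cells. Msmo1, the methylsterol monooxygenase, varied least among the enzymes, from 16.6 CPM in Kupffer cells of the ND Lyz2Cre/+.Egr2fl/fl mouse to 36.9 CPM in dendritic cells of the CDA-HFD Egr2fl/fl mouse. Neutrophils held 11.1 to 19.9 CPM of Msmo1, about as much as the ND Kupffer cells, at 18.2 and 16.6 CPM, and the Kupffer cell level of this gene is read as no more than that reference.

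**Figure D1:**
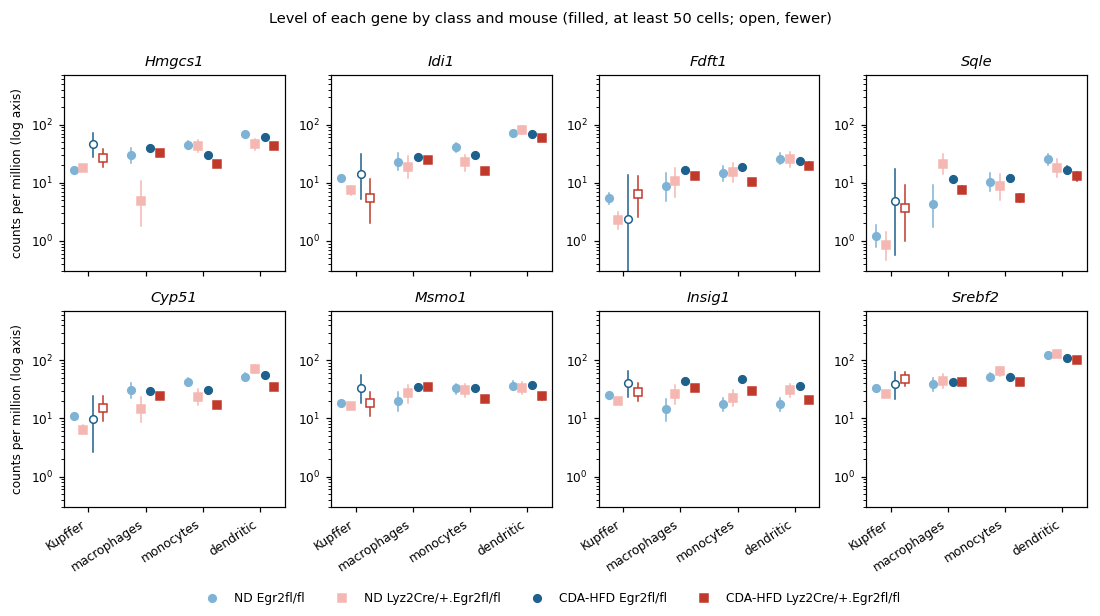
Levels of the 8 genes in CPM (log axis) in Kupffer cells, macrophages, monocytes and dendritic cells of the 4 mice; each point is 1 mouse's pool of cells, filled for at least 50 cells and open for fewer, and bars are 95% Poisson intervals. Idi1 runs from 11.9 and 7.41 CPM in ND Kupffer cells to between 58.7 and 81.4 CPM in dendritic cells, while Insig1 keeps no such order.

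Insig1, which retains the Scap and Srebp2 complex in the endoplasmic reticulum and is itself a Srebp2 target, did not keep the enzymes' order. On ND it stood at 25.4 and 20.01 CPM in Kupffer cells, 14.3 and 26.3 CPM in macrophages, 17.5 and 22.4 CPM in monocytes and 17.7 and 30.9 CPM in dendritic cells. The Kupffer cells of the Egr2fl/fl mouse were thus the highest of its 4 classes and those of the Lyz2Cre/+.Egr2fl/fl mouse the lowest. Srebf2, which encodes Srebp2, stood at 33.1 and 26.1 CPM in ND Kupffer cells, 39.3, 44.3, 42.04 and 41.8 CPM in macrophages and 51.8, 64.6, 51.5 and 42.6 CPM in monocytes. Dendritic cells stood well above all of these, at 122, 128, 109 and 100.2 CPM, and held the highest Srebf2 in every mouse.

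The class order is clearest as a ratio within 1 mouse, which takes the mouse out of the comparison. A gene is counted as higher or lower where its CPM differed by at least 1.5-fold, with at least 100 counts over the 2 pools as the filter for the background share. Dendritic cells over Kupffer cells of the ND Egr2fl/fl mouse had 7 of 8 members at least 1.5-fold higher, all but Insig1, against 20.4% of the genes compared, and 8 of 8 members passed the count filter. Sqle passed it through its 87 counts in dendritic cells, against 22 in Kupffer cells, where its level cannot be set apart from free RNA. In the ND Lyz2Cre/+.Egr2fl/fl mouse all 8 were at least 1.5-fold higher against 18.2% of genes, and 6 of 8 passed the filter, Fdft1 and Sqle being short of it. The median log2 ratio of the members that passed was 2.16 and 1.83, and that of all genes that passed was -0.19 and -0.26. Idi1 was 6.06-fold higher (5.02 to 7.31) in the first mouse and 11.0-fold higher (8.66 to 14.0) in the second. Srebf2 was 3.68-fold higher (3.24 to 4.17) and 4.92-fold higher (4.20 to 5.75).

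Monocytes over Kupffer cells gave 7 of 8 members in both ND mice, again all but Insig1, against 19.3% and 18.7% of genes. The count filter was passed by 7 and 6 of the 8, of which 6 and 5 were counted as higher. Cyp51 was 3.86-fold higher (3.08 to 4.83) and 3.65-fold higher (2.51 to 5.23), and Msmo1 was 1.80-fold (1.43 to 2.24) and 1.84-fold (1.36 to 2.46) higher. The folds of Msmo1 are over a Kupffer cell level read as no more than that of neutrophils. Macrophages over Kupffer cells gave 5 and 6 members, of which 4 and 4 were among the 7 and 6 past the count filter, against 18.0% and 17.4%. Idi1, Fdft1, Sqle and Cyp51 were counted in both mice. Hmgcs1 was 1.84-fold higher (1.32 to 2.50) in the Egr2fl/fl mouse, and 3.60-fold lower in the Lyz2Cre/+.Egr2fl/fl mouse, where it rests on 6 counts. On the share of cells with a count, after thinning each cell to 3000 counts, its sign in the Egr2fl/fl mouse turned, and the 5 members of that mouse were 2 without the top 10% of cells by total counts. The ratios of the other classes to Kupffer cells are plotted by gene and by mouse.

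**Figure D2:**
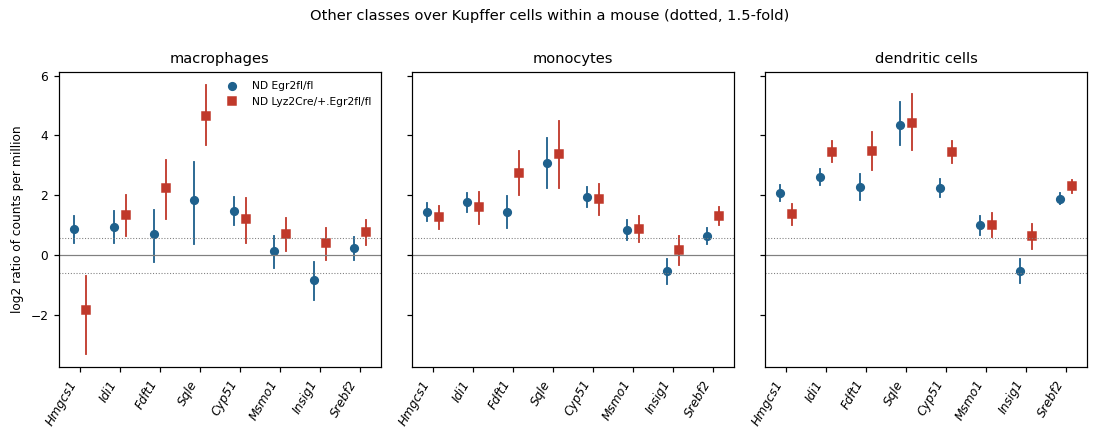
Log2 ratio of CPM of macrophages, monocytes and dendritic cells over Kupffer cells for each gene in the 2 ND mice, with 95% binomial bars and dotted lines at 1.5-fold. In the dendritic cell panel all genes but Insig1 sit above the upper dotted line in both mice, with Idi1 at 6.06-fold and 11.0-fold.

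The shares of cells with a count kept the order of Kupffer cells, monocytes and dendritic cells on ND only after thinning. A cell was scored as positive for the pathway when it held a count of any of the 6 enzymes after each cell was thinned to 3000 counts. Kupffer cells of the ND mice were positive in 15.8% and 12.5%, macrophages in 22.7%, 12.9%, 25.9% and 25.2%, monocytes in 26.7%, 21.6%, 23.1% and 16.4%, and dendritic cells in 37.6%, 39.8%, 36.1% and 27.9%. Neutrophils were positive in 6.59% to 8.26%. Without thinning the same shares were 49.2% and 41.2% in Kupffer cells and 73.3%, 70.4%, 63.7% and 53.1% in dendritic cells. They were 44.5%, 37.6%, 61.3% and 56.0% in macrophages and 43.9%, 38.6%, 42.7% and 33.6% in monocytes, so that both classes stood below the Kupffer cells on ND. Cells with at least 2 of the 6 enzymes after thinning were 1.24% and 0.635% of Kupffer cells and 12.1%, 12.2%, 12.3% and 6.97% of dendritic cells.

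Other genes of the pathway were read from lists of known members. Of 13 other synthesis enzymes, 9 passed the count filter in dendritic cells over Kupffer cells of the ND Egr2fl/fl mouse, 6 were at least 1.5-fold higher (Pmvk, Mvd, Fdps, Lbr, Nsdhl and Sc5d), against 20.4% of genes, and none was lower, against 34.2%. In the ND Lyz2Cre/+.Egr2fl/fl mouse 10 passed, 5 were higher (Mvk, Pmvk, Mvd, Fdps and Sc5d), against 18.2%, and Dhcr7 was lower, against 36.6%. Fdps, which makes farnesyl diphosphate, stood at 26.9 and 18.7 CPM in the ND Kupffer cells and at 129 and 119 CPM in the ND dendritic cells. Of 10 genes of the Lxr and cholesterol export list, 9 passed and 7 were at least 1.5-fold lower in dendritic cells in both ND mice, namely Abca1, Abcg1, Mylip, Nr1h3, Apoe, Lpcat3 and Soat1, against 34.2% and 36.6% of genes. Of the other Srebp2 targets 2 passed, with Stard4 higher in both mice and Tmem97 lower in the Egr2fl/fl mouse. Of 5 genes of Srebp processing all passed and none was higher, with Scap and Mbtps2 lower in the first mouse and Mbtps2 and Srebf1 in the second. Of 9 genes of fatty acid synthesis 7 passed, Fasn and Scd2 were higher in both mice, and 4 and 3 were lower (Acly, Acss2 and Scd1 in both and Fads1 in the first). The proliferation markers moved with the class as well: their summed level was 459 and 339 CPM in ND dendritic cells and 41.4 and 48.8 CPM in ND Kupffer cells, with 6 of 6 genes in the matrix. Hepatocyte markers, with 9 of 10 in the matrix and Alb listed at 0 in every class, summed to 93.6 and 232 CPM in ND Kupffer cells and to 10.9 to 59.3 CPM in the other 3 classes. The 6 endothelial markers summed to 169 and 156 CPM in ND Kupffer cells and to 16.4 to 33.04 CPM in the other 3 classes of the ND mice. The part of the endothelial markers in the class differences was not tested. Without the cells carrying at least 2 proliferation markers the members' counts in dendritic cells over Kupffer cells were 7 and 8. Without the top 10% of cells by hepatocyte marker share they were 7 and 8. The first filter leaves cells with fewer of its markers, and the second takes the same share from each pool. Neither evens out these lists between the classes, and the part of both lists in the class differences was not tested.

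In the CDA-HFD mice the Kupffer cells were too few for this comparison, and dendritic cells were set against macrophages. The Egr2fl/fl mouse had 4 of 8 members at least 1.5-fold higher in dendritic cells (Hmgcs1, Idi1, Cyp51 and Srebf2), against 15.5% of genes. The Lyz2Cre/+.Egr2fl/fl mouse had 3 of 8 (Idi1, Sqle and Srebf2), against 15.1%. That count was 1 without the mature cells, 6 with 1 marker more in each gate, and 5 with the mean over cells of CPM, without the top 10% of cells by total counts or without the upper 50% by stress gene share. All 8 passed the filter in both mice. Srebf2 was 2.59-fold higher (2.39 to 2.80) and 2.40-fold higher (2.20 to 2.60), and Idi1 was 2.49-fold (2.25 to 2.76) and 2.35-fold (2.11 to 2.62) higher. Insig1 went against them, at 36.3 CPM in dendritic cells and 44.5 CPM in macrophages of the first mouse and at 20.8 and 33.5 CPM in the second, 1.61-fold lower in dendritic cells of the second. Msmo1 was also lower in dendritic cells of the second mouse, at 23.9 and 34.1 CPM, 1.43-fold.

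The dendritic cells were not uniform. Mature cells, picked by Ccr7, Fscn1, Ccl22 and Cacnb3, carried more of the enzymes than cells picked by Cd209a, Clec10a and Kmo. On CDA-HFD, with 105 and 77 mature cells, Idi1 stood at 241 CPM (217 to 267) and 343 CPM (307 to 382) in mature cells and at 37.1 and 28.3 CPM in Cd209a+ cells. Hmgcs1 stood at 163 and 127 CPM in mature cells against 33.8 and 26.4 CPM. The ratios were 6.49-fold (5.49 to 7.68) and 12.1-fold (10.1 to 14.6) for Idi1, and 4.82-fold (3.997 to 5.82) and 4.79-fold (3.77 to 6.08) for Hmgcs1. Fdft1 was 2.49-fold and 4.59-fold higher, Cyp51 1.98-fold and 4.99-fold and Msmo1 2.94-fold and 3.66-fold. Sqle was at a ratio of 1.41 (0.907 to 2.14) and 3.97 (2.51 to 6.19). The Egr2fl/fl mouse had 5 of 8 members at least 1.5-fold higher in mature cells, all but Sqle, Insig1 and Srebf2, against 15.0% of genes. The Lyz2Cre/+.Egr2fl/fl mouse had 7 of 8, all but Srebf2, against 17.4%. The filter was passed by 8 and 7, of which 5 and 6 were counted as higher.

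**Figure D3:**
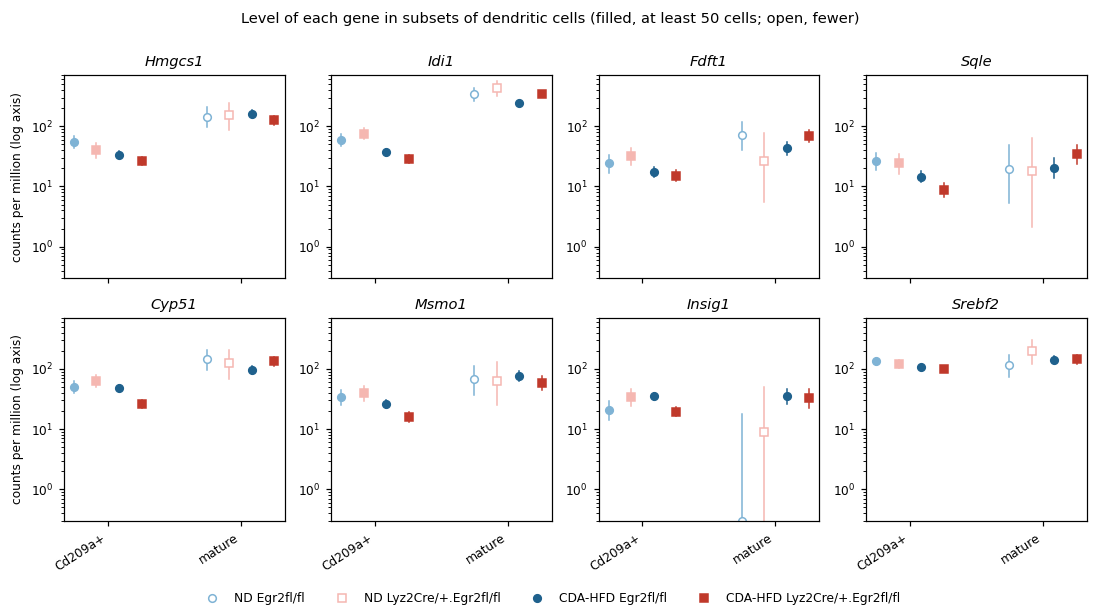
Levels of the 8 genes in CPM (log axis) in Cd209a+ and mature dendritic cells of the 4 mice, 1 point a mouse with 95% Poisson intervals; open points are pools under 50 cells. Idi1 stands at 241 and 343 CPM in mature cells of the CDA-HFD mice against 37.1 and 28.3 CPM in the Cd209a+ cells, and the ND Egr2fl/fl mature pool, without a count of Insig1, is drawn at the foot of the axis.

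The step was smaller in the regulators. Srebf2 stood at 142 and 144 CPM in mature cells and at 108 and 98.5 CPM in Cd209a+ cells of the CDA-HFD mice, 1.32-fold (1.12 to 1.54) and 1.46-fold (1.21 to 1.76) higher. Insig1 stood at 35.2 and 32.7 CPM in mature cells and at 35.4 and 19.6 CPM in Cd209a+ cells. It was level in the first mouse and 1.67-fold higher (1.09 to 2.48) in the second. On ND the mature cells were 14 and 8, and their values (Idi1 341 and 427 CPM, Hmgcs1 144 and 151 CPM) are given for completeness only. Of the mature cells on CDA-HFD, 54.3% and 62.3% held a count of any of the 6 enzymes after thinning, and 29.5% and 29.9% held at least 2 of them. Of the 13 other synthesis enzymes only 6 passed the count filter in each mouse. Of these, Pmvk, Mvd, Fdps and Sc5d were at least 1.5-fold higher in mature cells of both mice, against 15.0% and 17.4% of genes, and Lbr and Ebp were lower in both, against 32.6% and 35.0%.

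Diet was compared within a genotype for macrophages, monocytes and dendritic cells, CDA-HFD over ND. In monocytes of the Egr2fl/fl mice, 1 member was at least 1.5-fold higher, Insig1, against 9.74% of genes, and 1 was lower, Hmgcs1, against 13.6%. Insig1 stood at 17.5 CPM on ND and 47.7 CPM on CDA-HFD, 2.73-fold higher (2.08 to 3.64). Hmgcs1 stood at 44.3 and 29.5 CPM, 1.501-fold lower, which is at the edge of the threshold and ended with TMM scaling, in which edgeR rescales the totals of the pools, or with 1 marker more. In monocytes of the Lyz2Cre/+.Egr2fl/fl mice no member was higher against 14.2% of genes, and 3 were lower (Hmgcs1, Sqle and Srebf2) against 13.5%. The interval of Sqle held 1, and its direction turned with 1 marker more in each gate, with the mean over cells of CPM, on the thinned share and without the upper 50% of cells by stress gene share. The count of 3 was 1 with TMM scaling and on the thinned share, and 5 with classes from clusters. Hmgcs1 stood at 42.7 and 20.8 CPM there, 2.05-fold lower, and Insig1 at 22.4 and 30.1 CPM, 1.34-fold higher with an interval of 0.981 to 1.89 that held 1. All 8 passed the filter in both. A single member of 8 is a share near that of all genes, and these counts alone say nothing particular about the members.

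In macrophages of the Egr2fl/fl mice 4 members were at least 1.5-fold higher on CDA-HFD (Fdft1, Sqle, Msmo1 and Insig1) against 14.2% of genes, and none was lower against 21.2%. Fdft1 turned lower on the thinned share. Insig1 stood at 14.3 and 44.5 CPM, 3.11-fold higher (2.06 to 4.92). In the Lyz2Cre/+.Egr2fl/fl mice 2 were higher (Hmgcs1 and Cyp51) against 15.3%, and 1 was lower (Sqle) against 21.9%. The 2 higher were 6 with TMM scaling, 4 with classes from clusters, and 1 without the top 10% of cells by total counts. Hmgcs1 stood at 4.93 and 32.1 CPM, and the first value rests on 6 counts. The ND macrophages were 110 and 85 cells, and the ND pools held 6 to 63 counts of each member. The make-up of the class moved with diet: cells with lipid-associated markers were 7 of 110, 4 of 85, 671 of 1237 and 531 of 1347, and the 6 markers summed to 482, 491, 2345 and 1692 CPM. The 7 Ly6Chi markers summed to 2145, 1388, 885 and 1175 CPM and the 6 proliferation markers to 208, 241, 63.3 and 104 CPM. The part of this in the differences was not tested.

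In dendritic cells of the Egr2fl/fl mice, Insig1 was the 1 member at least 1.5-fold higher, against 11.1% of genes, and Sqle the 1 lower, against 12.2%. No member was lower with 1 marker more, classes from clusters, TMM scaling, or without proliferating cells or the top 10% of cells by total counts or by hepatocyte markers. Insig1 stood at 17.7 and 36.3 CPM, 2.05-fold higher (1.56 to 2.73). In the Lyz2Cre/+.Egr2fl/fl mice no member was higher against 10.8%, and Cyp51 was lower, at 70.5 and 34.8 CPM or 2.03-fold, against 10.6%. That count of 1 was not stable: it was 5 with at least 90% of hashtag counts from the own hashtag or with classes from clusters, and 6 without mature cells or without the top 10% of cells by total counts. Insig1 there stood at 30.9 CPM on ND and 20.8 CPM on CDA-HFD. Insig1 was thus higher on CDA-HFD in all 3 classes of the Egr2fl/fl mice, with intervals above 1, and not in all 3 of the Lyz2Cre/+.Egr2fl/fl mice. This difference between genotypes was not tested.

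**Figure D4:**
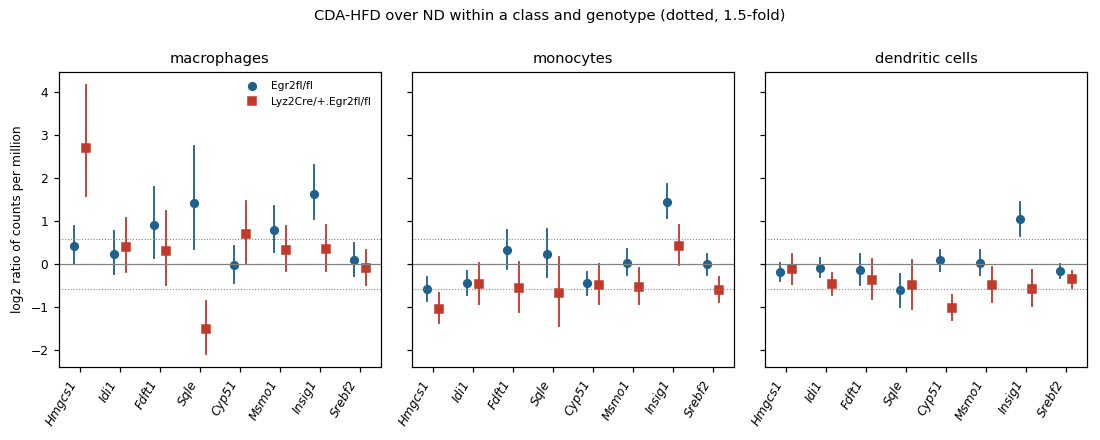
Log2 ratio of CPM, CDA-HFD over ND, for each gene in macrophages, monocytes and dendritic cells of each genotype, with 95% binomial bars and dotted lines at 1.5-fold. Insig1 of the Egr2fl/fl mice lies above the line in each class (3.11-fold, 2.73-fold and 2.05-fold).

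Beside the diet, other measures moved. The summed level of the 7 dissociation and stress genes (Fos, Jun, Egr1, Atf3, Hspa1a, Hspa1b and Dnajb1, 7 of 7 in the matrix and none at 0) was 1012, 1140, 5141 and 3576 CPM in monocytes, 1804, 2014, 3591 and 2639 CPM in macrophages and 786, 1180, 4606 and 3335 CPM in dendritic cells. All CDA-HFD pools stood above all ND pools of the same class. The 10 macrophage markers summed to 3107, 4121, 5641 and 8495 CPM in monocytes, with the 3 C1q genes at 0 in the second pool, and the 10 dendritic cell markers to 227, 184, 79.9 and 73.9 CPM. In dendritic cells the 4 markers of mature cells summed to 801, 445, 1726 and 1363 CPM. The part of these lists in the diet differences was not tested. Of the 10 genes of the Lxr list 9 passed the count filter in monocytes of each genotype. Of these, Abca1, Mylip, Nr1h3 and Apoe were at least 1.5-fold higher on CDA-HFD in both, against 9.74% and 14.2% of genes, and none was lower. In macrophages the list went both ways, at shares near those of all genes. In the Egr2fl/fl mice 10 passed, Abcg1 and Lpcat3 were higher, against 14.2%, and Cyp27a1 and Ch25h lower, against 21.2%, and in the Lyz2Cre/+.Egr2fl/fl mice 9 passed, Lpcat3 and Soat1 were higher, against 15.3%, and Cyp27a1 lower, against 21.9%. In dendritic cells 8 passed in each genotype. Mylip, Nr1h3 and Apoe were higher in the Egr2fl/fl mice, against 11.1%, and in the Lyz2Cre/+.Egr2fl/fl mice Nr1h3 was higher, against 10.8%, and Apoe lower, against 10.6%. Of the 13 other synthesis enzymes 9 and 10 passed, and 3 were lower in monocytes of the Egr2fl/fl mice (Acat2, Pmvk and Fdps) and 5 in those of the Lyz2Cre/+.Egr2fl/fl mice (Acat2, Mvk, Mvd, Lbr and Nsdhl), against 13.6% and 13.5% of genes, and none was higher in either. In macrophages 13 and 12 passed, 4 and 3 were higher, against 14.2% and 15.3%, and 3 and 2 were lower, against 21.2% and 21.9%. In dendritic cells 9 and 8 passed, none was higher, and 1 and 4 were lower, against 12.2% and 10.6%.

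Genotype was compared within a diet, Lyz2Cre/+.Egr2fl/fl over Egr2fl/fl. In monocytes of the CDA-HFD mice 6 of 8 members were at least 1.5-fold lower with the Cre allele, against 1.86% of genes. All but Hmgcs1 and Srebf2 passed that fold, and the intervals of all 8 ratios lay below 1. Sqle stood at 12.1 CPM (10.7 to 13.7) in the Egr2fl/fl mouse and at 5.47 CPM (4.60 to 6.46) in the Lyz2Cre/+.Egr2fl/fl mouse, 2.22-fold lower. Cyp51 stood at 31.0 and 16.9 CPM, 1.84-fold lower, and Idi1 at 29.7 and 16.2 CPM, 1.83-fold lower. Fdft1 was 1.76-fold lower, Insig1 1.58-fold and Msmo1 1.57-fold. Hmgcs1 was 1.42-fold lower, at 29.5 and 20.8 CPM, and Srebf2 1.21-fold lower, at 51.5 and 42.6 CPM. The median log2 ratio of the members was -0.74, and that of all genes 0.03.

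**Figure D5:**
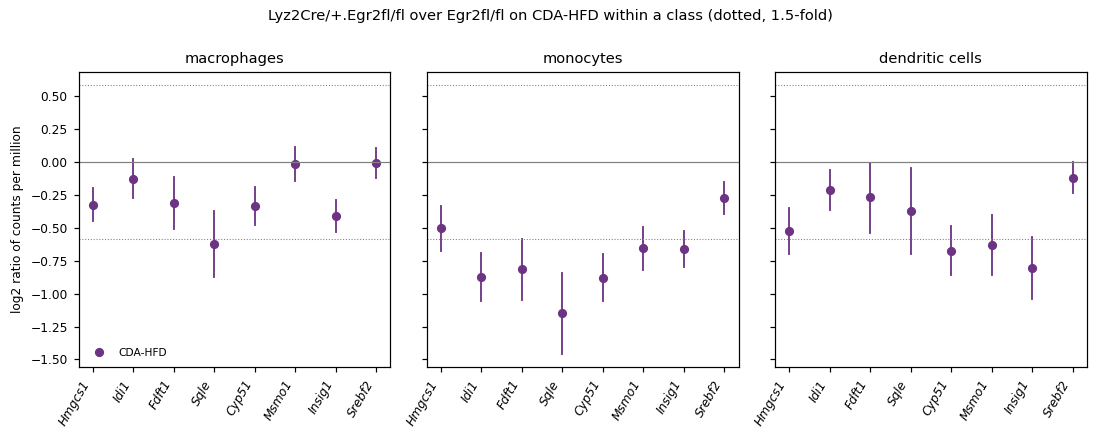
Log2 ratio of CPM, Lyz2Cre/+.Egr2fl/fl over Egr2fl/fl, for each gene in macrophages, monocytes and dendritic cells of the CDA-HFD mice, with 95% binomial bars and dotted lines at 1.5-fold. In monocytes of the CDA-HFD mice all 8 genes lie below 0, from 1.21-fold lower for Srebf2 to 2.22-fold lower for Sqle.

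Ly6Chi and Ly6Clo monocytes did not move alike for every member. In Ly6Chi monocytes of the CDA-HFD mice (976 and 1171 cells) all 8 members were lower, by 1.29-fold for Srebf2 to 2.68-fold for Sqle. In Ly6Clo monocytes (394 and 437 cells) Idi1 was 2.14-fold and Cyp51 1.82-fold lower, while Msmo1, at 19.5 and 20.8 CPM, and Srebf2, at 49.4 and 55.0 CPM, were not lower. The rest were lower there by less, with Hmgcs1 at 25.9 and 18.5 CPM and Fdft1 at 15.0 and 11.5 CPM. Sqle stood at 8.55 and 6.18 CPM and Insig1 at 31.4 and 27.8 CPM. The share of CDA-HFD monocytes with a count of any of the 6 enzymes was 23.1% and 16.4% after thinning and 42.7% and 33.6% without it. In the monocytes of the ND mice, with 285 and 171 cells, Idi1 was 1.81-fold lower (40.6 and 22.4 CPM) and Cyp51 1.80-fold lower (42.4 and 23.5 CPM). The intervals of the other 6 ratios held 1 there.

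The 2 CDA-HFD mice differed in more than the pathway. In monocytes Hspa1a stood at 1224 CPM in the Egr2fl/fl mouse and 267 CPM in the Lyz2Cre/+.Egr2fl/fl mouse, and Fos at 1269 and 1498 CPM. The summed stress list was 5141 and 3576 CPM. Without the cells in the upper 50% of each pool by stress gene share, the count of members at least 1.5-fold lower was again 6. This split takes the same share from each pool and need not make their stress levels equal. The part of the stress genes in the difference was not tested. On the share of cells with a count after thinning it was 3. Stard4, a sterol carrier and a Srebp2 target, stood at 23.5 and 13.9 CPM, lower with the Cre allele, while Tmem97, the other gene of that list past the filter, stood at 16.2 and 13.4 CPM. Of the 13 other synthesis enzymes 12 passed the filter, 2 were lower (Lss and Sc5d), against 1.86% of genes, and none was higher. Of the Lxr list 9 passed, and Abca1, Abcg1 and Apoe were at least 1.5-fold higher, against 3.49%. The 10 macrophage markers, Apoe among them, summed to 5641 and 8495 CPM in the same monocytes, higher with the Cre allele, and their part in these differences was not tested. With 1 mouse a group, genotype and any other difference between these mice cannot be told apart.

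In macrophages of the CDA-HFD mice 1 member was at least 1.5-fold lower with the Cre allele, Sqle, at 11.6 and 7.54 CPM, against 2.32% of genes, and none with 1 marker more, classes from clusters, the mean over cells of CPM, the stress gene split or without the top 10% of cells by total counts. Idi1, Msmo1 and Srebf2 had intervals that held 1. In dendritic cells of the CDA-HFD mice 3 members were lower (Cyp51, Msmo1 and Insig1) against 2.91%, and Msmo1 changed sign, to a level value, on the thinned share. Insig1 stood at 36.3 and 20.8 CPM, 1.74-fold lower, and Cyp51 at 55.5 and 34.8 CPM, 1.59-fold lower. Egr2 itself stood at 48.2 and 37.5 CPM in these cells. Their mature cell markers summed to 1726 and 1363 CPM, and Xcr1, Clec9a and Wdfy4 together to 139 and 215 CPM. Their stress list summed to 4606 and 3335 CPM. The part of these lists in the differences was not tested. All 8 members passed the filter in both classes. Of the 13 other synthesis enzymes 10 passed the filter in these dendritic cells and 4 were lower (Mvk, Mvd, Fdps and Dhcr7), while in the macrophages 13 passed and Hsd17b7 alone was lower. None was higher in either, and the share of all genes higher was not computed for these comparisons. Within the dendritic cells the subsets differed: in Cd209a+ cells Cyp51 was 1.82-fold, Insig1 1.81-fold and Sqle 1.67-fold lower, while in mature cells Idi1 was 1.42-fold higher (1.22 to 1.66), Fdft1 1.58-fold higher (1.11 to 2.25) and Cyp51 1.39-fold higher (1.08 to 1.77). Hmgcs1 was lower in the mature cells too, at 163 and 127 CPM, as was Msmo1, at 75.8 and 58.2 CPM, with an interval that held 1. In dendritic cells of the ND mice Cyp51 was 1.35-fold higher with the Cre allele (1.07 to 1.70), Insig1 1.74-fold higher (1.201 to 2.53) and Idi1 1.13-fold higher (0.920 to 1.39), while Hmgcs1 was lower, at 68.8 and 45.8 CPM.

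Among Kupffer cells of the ND mice 3 members were at least 1.5-fold lower with the Cre allele (Idi1, Fdft1 and Cyp51) against 2.22% of genes, and 7 of 8 passed the filter. Fdft1 stood at 5.36 CPM (4.34 to 6.54) and 2.26 CPM (1.62 to 3.08), 2.37-fold lower. Cyp51 stood at 11.0 and 6.45 CPM, and Idi1 at 11.9 and 7.41 CPM. Insig1 and Srebf2 were each 1.27-fold lower, with intervals below 1. Hmgcs1 was level, at 16.3 and 17.8 CPM, and Msmo1 nearly so, at 18.2 and 16.6 CPM. Of the 13 other synthesis enzymes 11 passed, Sc5d was lower, against 2.22% of genes, and Acat2 higher, against 3.95%. Egr2 in the Kupffer cells was 5.30 and 0.905 CPM. Their hepatocyte markers summed to 93.6 and 232 CPM and their stress list to 728 and 595 CPM. The part of these lists in the differences was not tested. Cyp51 and Idi1 were thus lower with the Cre allele in Kupffer cells and monocytes of the ND mice and in monocytes of the CDA-HFD mice, and higher in dendritic cells of the ND mice, where the interval of Idi1 held 1. In dendritic cells of the CDA-HFD mice both were lower, Cyp51 by 1.59-fold and Idi1 by 1.16-fold, at 67.9 and 58.7 CPM. In macrophages Cyp51 was 2.07-fold lower on ND, with a change of sign on the thinned share, and 1.26-fold lower on CDA-HFD, while the intervals of Idi1 held 1 on both diets. All of these are comparisons of 1 mouse with 1 mouse.

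The macrophages of the CDA-HFD mice were also split by marker. Cells with lipid-associated markers (Spp1, Fabp5, Cd9, Gpnmb, F10 and Slc7a11) numbered 671 and 531, and cells with monocyte-derived Kupffer cell markers (Cd5l, Cd207, Clec1b, Il18bp and Vcam1) 52 and 69. Idi1 was higher in the lipid-associated cells of both mice, at 29.7 against 12.0 CPM and at 29.3 against 9.29 CPM. Cyp51 ran the same way, at 30.4 against 20.003 CPM and 24.8 against 7.96 CPM. Hmgcs1 differed little, at 42.9 against 39.2 CPM and 35.1 against 30.5 CPM. The Kupffer-marked cells hold 10 to 61 counts of each member, so only the wide gaps can be read. The other members did not all run with Idi1. Insig1 was 1.38-fold higher (1.01 to 1.94) in the lipid-associated cells of the first mouse and at a ratio of 0.801 (0.611 to 1.07) in the second, and Sqle was at 1.61 (0.859 to 3.41) and 0.922 (0.526 to 1.74). Srebf2 was at 1.07 (0.803 to 1.45) and 1.702 (1.22 to 2.44), Fdft1 at 1.95 (1.08 to 3.96) and 1.598 (0.929 to 2.98) and Msmo1 at 1.2003 (0.857 to 1.73) and 1.596 (1.14 to 2.29).

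Over the 14 pools of class and mouse with at least 50 cells, the members' log2(CPM + 1) values moved together to different degrees. Pearson's r with the mean of the other 7 was 0.967 for Fdft1, 0.918 for Idi1, 0.912 for Cyp51, 0.849 for Msmo1, 0.824 for Srebf2, 0.817 for Sqle, 0.616 for Hmgcs1 and 0.179 for Insig1. The pools share 1 library and 4 mice, and these values are a description with no test. Of the other synthesis enzymes Fdps (0.892), Sc5d (0.849) and Mvd (0.845) lay nearest the members, while Lss (0.170) and Lbr (0.0213) were near 0 and Dhcr7 (-0.455), Tm7sf2 (-0.334) and Ebp (-0.270) ran opposite. Abcg1 (-0.840), Abca1 (-0.811) and Nr1h3 (-0.800), of the Lxr list, ran opposite to them too. Of 10916 genes outside the lists, the 5 most like the members' mean were Rps18-ps5 (0.944), Rpl23 (0.936), Rpl15-ps2 (0.936), Gm15500 (0.934) and Gm7392 (0.933). Rps18-ps5 and Rpl15-ps2 are copies of ribosomal protein genes, and reads of such copies and of their parent genes cannot be told apart with certainty.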

How the data were processed

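The measurement was 3' single-cell RNA sequencing of liver CD11b+ cells, with a second library of hashtag tags that gives each cell its mouse. The authors deposited counts per gene and cell, with no normalization, and hashtag counts. Per the labels, read 1 holds a cell barcode and a UMI; whether the deposited counts are reads or UMIs is not given in the sources used here. The submitters' notes name GRCm38, Seurat 4.1.1 and R 4.2.1. The file's names mark 1392 barcodes as doublets between mice, which were left out, and doublets within a mouse were not removed. Of the hashtag table, 7 columns name no mouse of this series and were not used. In 51 genes, none of them a member, the lowest value above 0 is over 1 (160 for Alb), so low values of these genes may have been set to 0 before deposit.

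Cells with at most 25% mitochondrial counts were kept. A cell belonged to a class when it held counts of at least 5 of 8 Kupffer, 6 of 10 macrophage, 4 of 7 Ly6Chi or 4 of 7 Ly6Clo monocyte or 3 of 10 dendritic cell markers, and met no other class, with neutrophil, lymphoid and endothelial classes gated alike. Macrophages also needed 2 of the 3 C1q genes, which monocytes were not to reach. Apoe, of the Lxr list, is also a macrophage marker and 1 of these 51 genes, as are several gate markers, the C1q genes among them. These numbers were set with the markers' detection in view. Counts were summed per class and mouse and given as CPM. No test was run, since each group holds 1 mouse. Ratios took a threshold of 1.5-fold, and the background share used genes with at least 100 counts over the 2 pools. The scripts were tested on simulated data. Python 3.11.15, numpy 2.4.6, scipy 1.17.1, pandas 2.3.3, R 4.3.3, Seurat 5.3.0 and edgeR 4.0.16 (TMM scaling only) were used. The genes and lists were chosen with earlier results of these data known. Named genes were the 8 members, the members of the 5 pathway lists (of which 3 genes are not reported here or counted in their lists) and the 5 genes most like the members' mean. The alternatives are given in the closing section.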

Additional observations from a re-analysis of the deposited data

Results flagged for a closer look

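Each of the following is a pair of log2 ratios of CPM with opposite signs in 2 comparisons, each of 1 mouse with 1 mouse, and the difference between the 2 was not tested. Sqle in macrophages was higher on CDA-HFD in the Egr2fl/fl mice, at 1.41, and lower in the Lyz2Cre/+.Egr2fl/fl mice, at -1.50, and the ND pools held 7 and 26 counts of it. The same 1.41 in macrophages of the Egr2fl/fl mice stood against -0.61 in their dendritic cells. Hmgcs1 on CDA-HFD over ND in the Lyz2Cre/+.Egr2fl/fl mice was 2.71 in macrophages, from 6 ND counts, and -1.03 in monocytes. Cyp51 under the same contrast was 0.70 in macrophages and -1.02 in dendritic cells. Sqle in macrophages, Lyz2Cre/+.Egr2fl/fl over Egr2fl/fl, was 2.29 on ND and -0.62 on CDA-HFD. Insig1 in dendritic cells, under the same contrast, was 0.80 on ND and -0.80 on CDA-HFD.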

How the results depend on the processing

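Of 2082 log2 ratios recomputed under the alternatives, 1851 stayed within their main interval. Among ratios of at least 1.5-fold in the main setting, 8 changed sign, and sign changes of smaller ratios were not counted. Of 321 counts of members past the fold, 259 stayed within 1.5 times. With at most 10% mitochondrial counts no count moved further than that. Class ratios were taken within a mouse, and no paired test over the mice was run. The thinned share, the stress gene split and dendritic cells without mature ones were chosen after seeing the data.

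The counts of members past 1.5-fold in dendritic, macrophage and monocyte pools on CDA-HFD over ND moved most, and the cause was not tested. For macrophages of the Lyz2Cre/+.Egr2fl/fl mice, the 2 higher became 4 with classes from clusters, with the mean over cells of CPM and with the thinned share, 6 with TMM scaling, and 1 with at least 90% of hashtag counts from the own hashtag, without the top 10% of cells by total counts and at a fold of 2. The 4 higher of the Egr2fl/fl mice became 2 at a fold of 2. For monocytes of the Egr2fl/fl mice, the 1 higher became 2 with the 90% hashtag limit, the thinned share and the stress split, and the 1 lower became 2 with the hashtag limit and 0 with 1 marker more, TMM, a fold of 2, the mean of CPM and the stress split. For monocytes of the Lyz2Cre/+.Egr2fl/fl mice, the 0 higher became 1 with 1 marker more, clusters and without the top 10% by total counts or by hepatocyte markers, and 2 with the stress split, and the 3 lower became 5 with clusters and 1 with TMM, a fold of 2 and the thinned share. For dendritic cells of the Egr2fl/fl mice, the 1 lower became 0 with 1 marker more, clusters, TMM, a fold of 2, and without proliferating cells, the top 10% by hepatocyte markers or the top 10% by total counts. For dendritic cells of the Lyz2Cre/+.Egr2fl/fl mice, the 0 higher became 1 with 1 marker more, and the 1 lower became 2 with 1 marker more, 3 with the mean of CPM, the thinned share, the stress split and without the top 10% by hepatocyte markers, 4 without proliferating cells, 5 with the hashtag limit and clusters, and 6 without mature cells or without the top 10% by total counts.

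Dendritic cells over macrophages in the CDA-HFD Lyz2Cre/+.Egr2fl/fl mouse gave 3 higher, and 6 with 1 marker more, 1 without mature cells and 5 with the mean of CPM, without the top 10% by total counts and with the stress split. In the Egr2fl/fl mouse the 4 became 2 at a fold of 2. Macrophages over Kupffer cells of the ND Egr2fl/fl mouse gave 2 at a fold of 2 and without the top 10% by total counts. The 1 macrophage member lower with the Cre allele on CDA-HFD became 0 with 1 marker more, clusters, the mean of CPM, a fold of 2, without the top 10% by total counts and with the stress split. At a fold of 2, the members lower with the Cre allele were 1 in ND Kupffer cells, 0 in dendritic cells and 1 in monocytes on CDA-HFD, and with the thinned share 3 in these monocytes. Other recomputed counts for monocytes by genotype were 5 or 6.

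The sign of a log2 ratio of at least 1.5-fold in the main setting changed in 8 cases. With the thinned share Hmgcs1 in macrophages over Kupffer cells of the ND Egr2fl/fl mouse was -0.0431, Fdft1 on CDA-HFD in macrophages of the Egr2fl/fl mice -0.32, Cyp51 by genotype in ND macrophages 0.11 and Msmo1 by genotype in CDA-HFD dendritic cells 0.0089. Sqle on CDA-HFD in monocytes of the Lyz2Cre/+.Egr2fl/fl mice was 0.23 with 1 marker more, 0.93 with the stress split, 0.0198 with the mean of CPM and 0.35 with the thinned share.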
